A study of Mus musculus with 2 samples.

Results

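The genes described here are 10 integrin subunits that bind the extracellular matrix, Itga1, Itga2, Itga3, Itga5, Itga6, Itgav, Itgb1, Itgb4, Itgb5 and Itgb8. They were taken by symbol from the 32285 genes of the mouse reference, and each symbol named 1 gene. No rule on their measured values was used, but earlier results of these data were known when they were chosen. The other 16 integrin subunits served as a comparison. Integrins are receptors made of an alpha and a beta chain that tie the cytoskeleton to the matrix outside the cell. The alpha chain largely sets the ligand: alpha 3 and alpha 6 bind laminins of basement membranes, alpha 1 and alpha 2 bind collagens, and alpha 5 and alpha v bind proteins that carry the arginine-glycine-aspartate (RGD) motif, such as fibronectin and vitronectin. Beta 1 pairs with each of these alpha chains, beta 4 pairs with alpha 6 in hemidesmosomes, and beta 5 and beta 8 pair with alpha v, which in these forms can also bind the latent form of TGF-beta.

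The tumors were grown from KPCA cells, a mouse ovarian cancer line of fallopian tube origin with mutant Trp53 and forced expression of Ccne1 and Akt2, among other changes. Both grafted lines carried the alleles of the parent line and lacked the follistatin gene Fst. KPCA.FSTKO had no further change, and KPCA.FSTKO_hFSTL3 was a single clone of it that expressed human FSTL3, a secreted antagonist of activins. Omental tumors were taken from C57BL/6 mice at day 10 after intraperitoneal grafting, 4 tumors per line were pooled, and 1 single-cell library was made from each pool, so there is no replicate, no test was made, and the 95% intervals below cover counting error only. What differs between the libraries cannot be told apart from the clone, the pool or the library itself.

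The filters of the study left 6777 barcodes of KPCA.FSTKO and 4041 of KPCA.FSTKO_hFSTL3, and the libraries had 10 barcodes in common. A barcode was given a cell class when unique molecular identifiers (UMIs, each standing for a captured transcript) of that class's marker genes passed a threshold and those of every other class stayed low. The thresholds were set after the marker distributions had been seen. The gate kept 3585 and 258 cancer-like cells, 353 and 64 stromal-like cells (fibroblast or mural markers), 747 and 128 macrophage-like cells and 65 and 10 endothelial-like cells in KPCA.FSTKO and KPCA.FSTKO_hFSTL3, respectively. The cancer-like cells carried keratins, with Krt8 at 815 and 1186 CPM (UMIs of the gene per 1000000 UMIs of the class) and Krt19 at 1056 and 487, while Epcam, a common epithelial marker, stood at 5.31 and 0.414 CPM. The markers of the class thus differed between the libraries in both directions, with Krt18 at 936 and 1254 CPM, Pax8 at 9.67 and 28.9, Msln at 565 and 354 and Wfdc2 at 481 and 82.3. The median over the whole cancer list of 14 genes was 38.5 and 36.2 per 10000 UMIs. In KPCA.FSTKO_hFSTL3 the gate left 88.2% of the barcodes in no class, against 27.1% in KPCA.FSTKO, and 72.1% against 2.54% carried cancer and macrophage markers together. The cancer-like cells of KPCA.FSTKO_hFSTL3 are therefore a small share of that library. Transcripts of pancreatic acinar cells, a cell type foreign to these classes, had a median of 5.29 per 10000 UMIs in them, against 0.237 in KPCA.FSTKO.

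In cancer-like cells the fibronectin receptor chain Itga5 was the member with the largest difference between the libraries. Itga5 stood at 62.0 CPM (interval, 60.5 to 63.5, 6720 UMIs) in KPCA.FSTKO and at 145 CPM (138 to 153, 1402 UMIs) in KPCA.FSTKO_hFSTL3, which is 2.34-fold higher (2.21 to 2.48). The hemidesmosome chain Itgb4 followed with 28.1 and 53.0 CPM, 1.89-fold higher (1.71 to 2.07). Their main partners did not share this. Itgb1, the partner of alpha 5, stood at 445 and 442 CPM with a ratio of 0.992 (0.962 to 1.02), and Itga6, the partner of beta 4, at 231 and 196 CPM with a ratio of 0.847 (0.807 to 0.887).

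**Figure D1:**
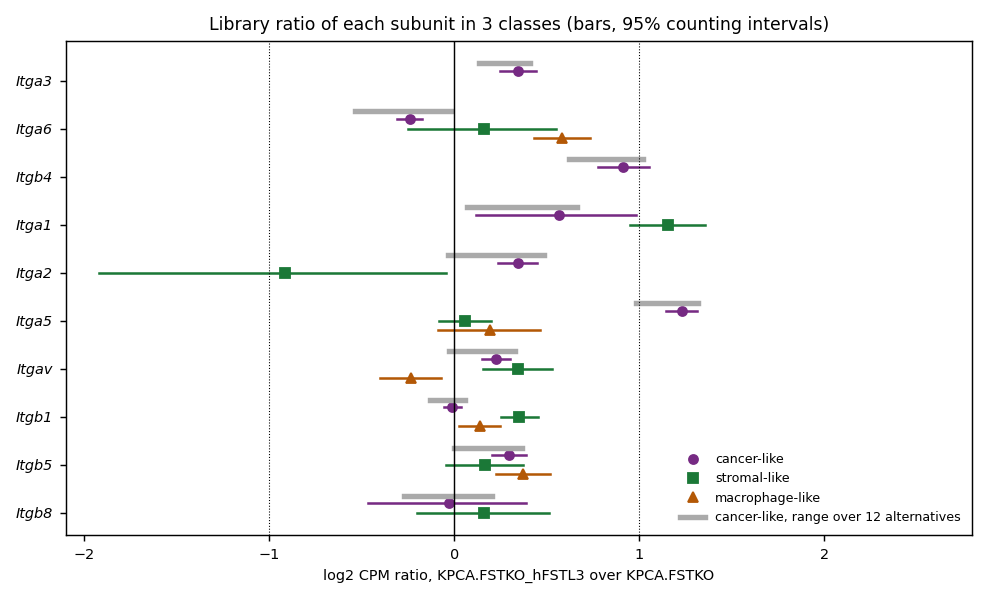
Log2 ratio of CPM, KPCA.FSTKO_hFSTL3 over KPCA.FSTKO (horizontal axis), for each subunit in the cancer-like, macrophage-like and stromal-like classes, where at least 100 UMIs were counted. Points are ratios, thin bars 95% counting intervals, dotted lines a 2-fold ratio, and grey bars the range in cancer-like cells over 12 of 13 other ways of processing, in which Itga5 stayed between 0.98 and 1.32. The bars leave out the counting of unclassed barcodes as cancer-like. That setting took Itgb4 to 0.12, Itga1 to 1.92, Itga6 to -1.09 and Itgb1 to -0.77. It took Itga2, Itga3, Itgav and Itgb5 below 0.

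By a size rule of at least 100 UMIs and a ratio of at least 2, 1 of the 10 members (Itga5) was higher in KPCA.FSTKO_hFSTL3 and 0 were lower, where 3.31% of 12943 genes that met the minimum were higher and 6.68% lower. At a ratio of at least 1.5 it was 2 members (Itga5 and Itgb4), where 11.1% of genes were higher, and again 0 were lower, where 13.4% of genes were. The median log2 ratio of the members was 0.32, against 0.01 over all genes, and 7 of the 10 lay above 0, as did 50.6% of all genes. Counts of this size are near what the whole table gives, so they describe Itga5 and Itgb4 and not the members as a group.

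Itga5 was found in more cells as well as at a higher level. A UMI of Itga5 was present in 62.2% (KPCA.FSTKO) and 70.5% (KPCA.FSTKO_hFSTL3) of cancer-like cells, at median depths of 28529 and 37917 UMIs per cell. With each cell thinned to 2000 UMIs, which removes the difference in depth, the shares were 10.9% (9.90 to 11.97) and 18.2% (13.7 to 23.5). Thinned to 5000 UMIs they were 21.9% and 43.4%. Lymphoid-like cells of KPCA.FSTKO, a class with few Itga5 UMIs, gave 8.57% unthinned at a median depth of 4737.5 and 2.86% when thinned to 2000 UMIs. The cell with most Itga5 UMIs held 0.506% of the sum in KPCA.FSTKO and 2.78% in KPCA.FSTKO_hFSTL3, and without these cells the ratio was 2.30. Itgb4 was found in 5.19% (4.49 to 5.97) and 7.36% (4.49 to 11.3) of the thinned cells, shares whose intervals overlapped.

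The Itga5 difference was seen within some groups of like cells, which held part of the class. Cells of both libraries were clustered together, with integrin genes kept out of the genes that defined the clusters, and 4 clusters held at least 20 cancer-like cells of each library. In cluster 1, with 1188 and 44 cells, Itga5 stood at 79.3 and 184 CPM, 2.32-fold higher in KPCA.FSTKO_hFSTL3 (2.07 to 2.58). The ratio was 2.60 (2.34 to 2.89) in cluster 4 and 2.47 (2.14 to 2.83) in cluster 7. Cluster 12, with 101 and 23 cells, gave 27.0 and 45.3 CPM and a ratio of 1.68 whose interval (0.960 to 2.86) included 1. Itgb4 had ratios of 2.26, 2.11, 2.22 and 3.77 in clusters 1, 4, 7 and 12, and each interval lay above 1. Each of these Itgb4 ratios lay above the 1.89 of all cancer-like cells, but each interval overlapped that of the whole class (1.71 to 2.07). Itgb1 lay between 0.959 and 1.19 in all 4 clusters, and Itga6 between 0.628 and 1.03. Of the 258 cancer-like cells of KPCA.FSTKO_hFSTL3, clusters 1, 4, 7 and 12 held 44, 58, 33 and 23. Another 45 lay in cluster 10, which held 2 of KPCA.FSTKO. Cells outside the 4 clusters were not compared in this way.

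**Figure D2:**
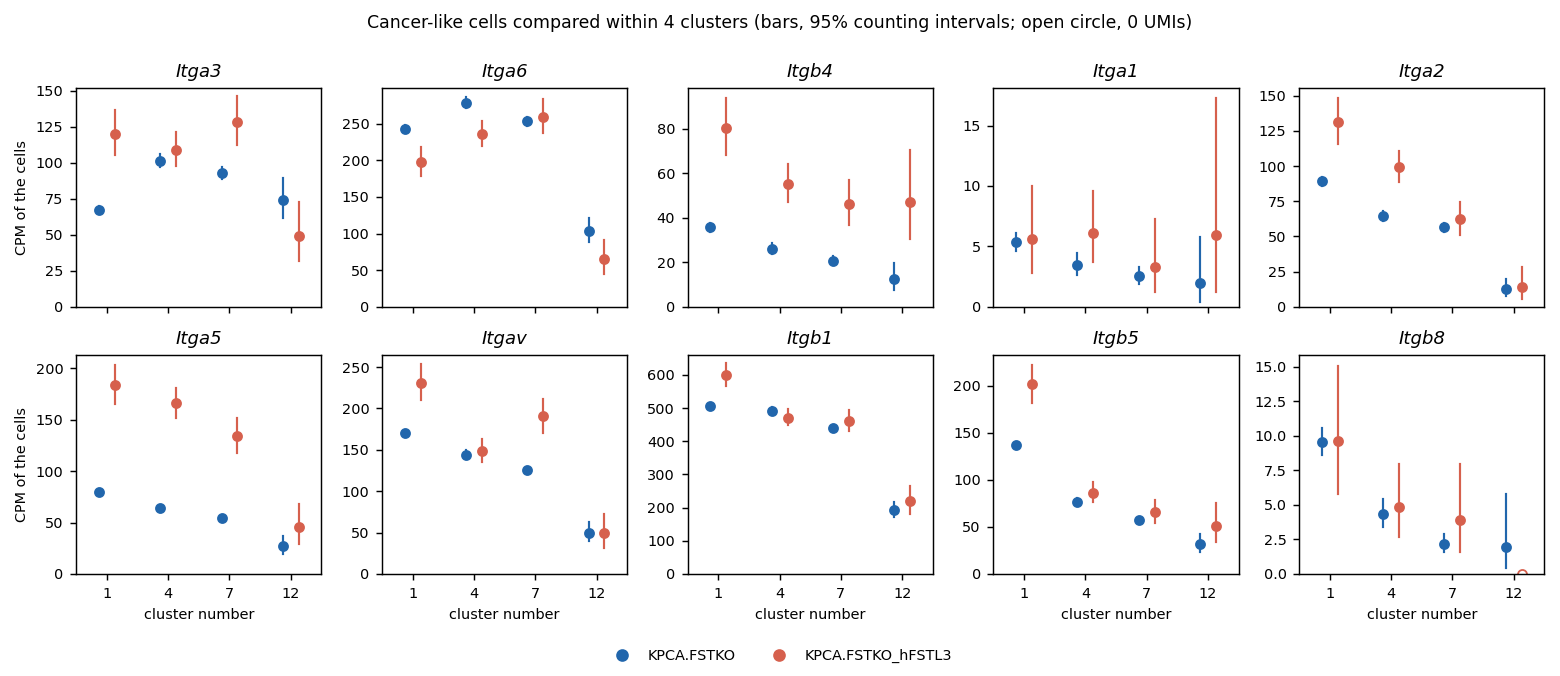
CPM of each subunit (vertical axis, from 0) in cancer-like cells of KPCA.FSTKO (blue) and KPCA.FSTKO_hFSTL3 (red) within the 4 clusters that held at least 20 such cells of each library; points are the CPM of summed UMIs and bars 95% counting intervals. Itga5 and Itgb4 sat above KPCA.FSTKO in clusters 1, 4 and 7 without overlap of the bars, whereas Itgb1 stayed within 0.959 to 1.19 of it.

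In the other classes with enough UMIs the interval of the Itga5 ratio included 1. Itga5 stood at 315 and 328 CPM in stromal-like cells, a ratio of 1.04 (0.944 to 1.15), and at 49.7 and 56.8 CPM in macrophage-like cells, a ratio of 1.14 (0.941 to 1.38). Whether the ratio differs between classes was not tested. Other measures that moved with the libraries in cancer-like cells were the acinar transcripts given above, the nuclear RNA Malat1 (12902 and 10113 CPM) and the share of cells under 5000 UMIs (5.55% and 12.4%), while the median mitochondrial share was 3.59% and 3.18%. Markers of cells in which Itga5 is high moved too. Of the stroma, Col1a1 stood at 32.2 and 65.0 CPM, Acta2 at 50.2 and 60.8 and Col3a1 at 576 and 255, and the list of 22 stromal genes had a median of 4.07 and 1.55 per 10000 UMIs. Of the endothelium, Pecam1 stood at 1.08 and 3.73 CPM and Cdh5 at 0.535 and 2.07, with a median of 0.220 and 0.257 per 10000 for the list of 10 genes. The erythroid gene Hbb-bs stood at 5.81 and 14.1 CPM. The part of these and of Malat1 and the acinar transcripts in the Itga5 result was not tested. With a minimum of 5000 UMIs per cell the log2 ratio of Itga5 was 1.24, against 1.23 in the whole class. With every cell weighing the same, by the mean of per-cell CPM, the log2 ratio of Itga5 was 0.98, just under 2-fold.

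The promoters of Itga5 and Itgb1, the chains of the main fibronectin receptor, are shown because the first differed between the libraries and the second did not. Both are the 250 bases before the annotated start, from RefSeq (GRCm38.p6), written 5′ to 3′ on the strand of the gene, for chr15:103366792-103367041 (minus strand) and chr8:128685404-128685653 (plus strand). Capitals mark matches on either strand to a GC box (GGGCGG), an AP-1 motif (TGANTCA) or a SMAD motif (CAGAC).
Itga5: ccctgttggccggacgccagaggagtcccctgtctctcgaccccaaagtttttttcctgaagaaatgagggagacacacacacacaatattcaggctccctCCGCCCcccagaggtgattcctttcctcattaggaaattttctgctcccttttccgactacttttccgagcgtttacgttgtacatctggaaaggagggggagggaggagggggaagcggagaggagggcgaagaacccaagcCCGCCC
Itgb1: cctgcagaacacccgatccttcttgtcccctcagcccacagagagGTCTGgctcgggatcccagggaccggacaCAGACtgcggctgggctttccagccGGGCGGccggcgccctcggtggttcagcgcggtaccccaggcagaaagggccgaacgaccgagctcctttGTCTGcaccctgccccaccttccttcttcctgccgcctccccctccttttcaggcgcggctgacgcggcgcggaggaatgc
Itga5 had 2 GC boxes and 0 SMAD matches, and Itgb1 had 1 GC box and 3 SMAD matches. Among 32851 promoters of the same length 32.7% held the GC box, 42.2% the SMAD letters and 6.75% the AP-1 letters, and AP-1 was in none of the 8 member genes with a promoter in the table. The matches describe the letters in these windows and say nothing of binding.

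Among the laminin-binding chains, Itga3, Itga6 and Itgb4, levels set cancer-like cells apart from stroma. Itga3 (chr11:95044474-95076801) stood at 78.1 CPM in cancer-like cells of KPCA.FSTKO and at 8.18 in stromal-like cells, a ratio of 0.105 (0.0786 to 0.137). In KPCA.FSTKO_hFSTL3 the levels were 99.2 and 5.60 CPM, a ratio of 0.0565 (0.0257 to 0.108). Endothelial-like cells, whose vessels rest on a laminin-rich basement membrane, had 101 CPM (79.8 to 127) in KPCA.FSTKO, an interval that met the cancer-like one. The library ratio of Itga3 in cancer-like cells was 1.27 (1.19 to 1.36), but it was not uniform, with 1.78 in cluster 1, 1.07 in cluster 4, 1.38 in cluster 7 and 0.661 in cluster 12.

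Itga6 (chr2:71745616-71858416) was highest in endothelial-like cells, at 690 CPM in KPCA.FSTKO (632 to 752) and 558 in KPCA.FSTKO_hFSTL3 (445 to 691). Cancer-like cells followed with 231 and 196 CPM and macrophage-like cells with 129 and 194, whereas stromal-like cells stayed at 37.9 and 42.3. In KPCA.FSTKO these 4 levels did not overlap in their intervals. In KPCA.FSTKO_hFSTL3 the cancer-like and macrophage-like levels could not be told apart (ratio, 0.989, interval 0.893 to 1.09), with Itga6 at a library ratio of 1.498 (1.35 to 1.66) in macrophage-like cells.

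Itgb4 (chr11:115974709-116008412) was the one member whose highest level in KPCA.FSTKO lay in cancer-like cells. It stood at 28.1 CPM there, at 5.46 in stromal-like, 9.32 in endothelial-like (7 UMIs) and 1.16 in macrophage-like cells (12 UMIs) of KPCA.FSTKO. An Itgb4 UMI was found in 45.6% of these cells, against 1.47% of macrophage-like cells, a class that should lack it, at median depths of 28529 and 13048. Macrophage-like cells of KPCA.FSTKO_hFSTL3 held 3 UMIs, 1.21 CPM, a library ratio of 1.04 whose interval (0.189 to 3.86) left the size of this background uncertain.

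The collagen-binding chains were both highest in endothelial-like cells among the classes of KPCA.FSTKO and ran opposite ways between stroma and cancer-like cells. Itga1 (chr13:114953096-115101964), a receptor for basement-membrane collagen on vessels and muscle-like cells, stood at 3.64 CPM in cancer-like cells of KPCA.FSTKO, at 89.0 in stromal-like cells and at 341 in endothelial-like cells. The ratio to cancer-like cells was 24.4 (21.5 to 27.8) in stroma and 93.6 (79.7 to 110) in endothelium. With classes taken from clusters the log2 ratio of stroma fell from 4.61 to 3.21, as stromal-like Itga1 stood at 44.2 CPM. In KPCA.FSTKO_hFSTL3 these levels were 5.38, 198 and 472 CPM. Lymphoid-like cells of KPCA.FSTKO had 101 CPM (73.9 to 135), with an interval that overlapped the stromal one. Pelo and Gm49395 are annotated within the Itga1 locus on the same strand and may share reads with it, which leaves its level uncertain.

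Within the stroma Itga1 followed the contractile cells. Stromal-like cells with at least 30 mural UMIs per 10000 (smooth muscle and pericyte markers such as Acta2 and Tagln), a split chosen after the data were seen, had 348 CPM of Itga1 against 41.1 in the other stromal-like cells of KPCA.FSTKO, 8.47-fold more. The values were 447 and 54.0 CPM in KPCA.FSTKO_hFSTL3, 8.28-fold more, from 23 and 41 cells. There 1 cell held 27.4% of the stromal Itga1 UMIs, and the split was not recomputed without it. Itgb1, the partner chain, was 1.82-fold and 2.13-fold higher in the contractile cells of KPCA.FSTKO and KPCA.FSTKO_hFSTL3. Itga5 differed by 0.968-fold (0.856 to 1.09) in KPCA.FSTKO and was 2.23-fold higher in KPCA.FSTKO_hFSTL3, where 1 cell held 19.2% of the stromal Itga5 UMIs.

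Itga1 was also the stromal member with the largest difference between the libraries among those past the size rule, at 89.0 and 198 CPM, 2.22-fold higher in KPCA.FSTKO_hFSTL3 (1.93 to 2.55). By the size rule 1 of 8 members with enough UMIs was higher in the stroma of that library, where 1.38% of genes were, and 0 were lower, where 2.22% of genes were. The contractile cells were 53 of 353 in KPCA.FSTKO and 23 of 64 in KPCA.FSTKO_hFSTL3, and the part of their share in the result was not tested. One cell held 27.4% of the Itga1 UMIs in the stroma of KPCA.FSTKO_hFSTL3, and without the top cell of each library the ratio was 1.81 (1.54 to 2.11). The difference did not hold under other definitions of the class. With a stricter marker gate stromal-like Itga1 stood at 88.9 and 86.4 CPM (279 and 54 cells), and with classes taken from clusters at 44.2 and 46.9 CPM (449 and 66 cells), so under both it was no longer past 2-fold. In macrophage-like cells Itga1 was 2.73-fold higher (1.76 to 4.18) from 58 and 38 UMIs, too few for the size rule, and of the 5 members with enough UMIs there 0 were higher and 0 lower, where 1.61% and 1.75% of genes were. Itgb1 and Itgav were 1.28-fold and 1.27-fold higher in the stroma, and Itga2 was lower (0.530, interval 0.264 to 0.970, 12 UMIs in KPCA.FSTKO_hFSTL3).

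Itga2 (chr13:114833081-114932100), the collagen receptor chain of epithelium and platelets and the neighbour of Itga1 on the chromosome, was higher in cancer-like cells than in stroma. In KPCA.FSTKO it stood at 66.1 CPM in cancer-like cells and at 14.1 in stroma, a ratio of 0.213 (0.172 to 0.261), and at 83.9 and 7.47 CPM in KPCA.FSTKO_hFSTL3. Macrophage-like cells had 2.90 and 0.805 CPM. Endothelial-like cells had 121 CPM (97.6 to 149) in KPCA.FSTKO. Its library ratio in cancer-like cells was 1.27 (1.18 to 1.36) by summed UMIs and on the other side of 1 by the mean of per-cell CPM (log2, -0.04), so the direction depends on how cells are weighed. The same held for Itgav, at 1.17 (1.11 to 1.23) by summed UMIs and at a log2 of -0.03 by the mean of per-cell CPM.

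**Figure D3:**
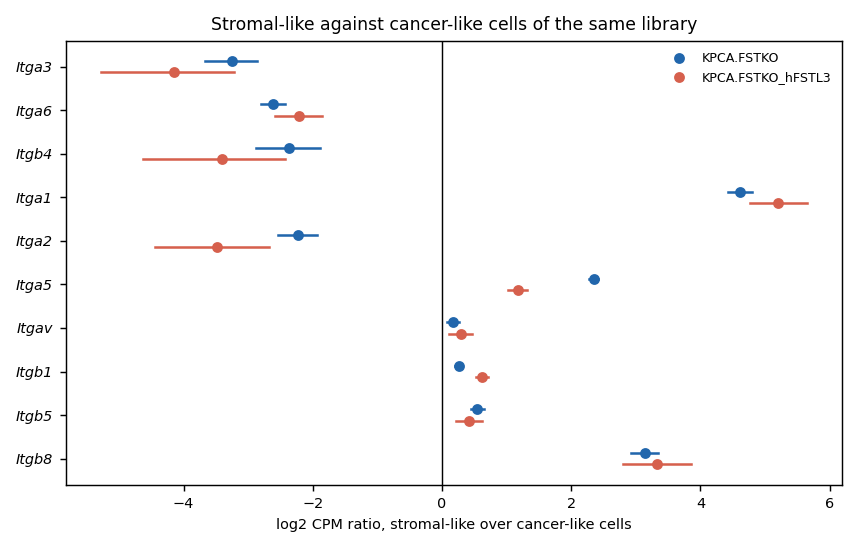
Log2 ratio of CPM, stromal-like over cancer-like (horizontal axis) within KPCA.FSTKO (blue) and within KPCA.FSTKO_hFSTL3 (red); points are ratios and bars 95% counting intervals. Itga1, Itga5 and Itgb8 lay above a 2-fold ratio in both libraries, and Itga2, Itga3, Itga6 and Itgb4 below the same ratio in the other direction.

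Set side by side, stromal-like and cancer-like cells held different chains. Of the 10 members 3 were at least 2-fold higher in stromal-like cells of KPCA.FSTKO (Itga1, Itga5 and Itgb8), where 14.8% of all genes were, and 4 at least 2-fold lower (Itga2, Itga3, Itga6 and Itgb4), where 17.1% of genes were. KPCA.FSTKO_hFSTL3 gave the same 3 and the same 4, with 12.8% and 16.6% of genes. For Itga5 the stromal level was 5.08-fold the cancer-like one in KPCA.FSTKO (4.84 to 5.34). In KPCA.FSTKO_hFSTL3, with its higher cancer-like level, it was 2.26-fold (2.04 to 2.50).

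Among the fibronectin and RGD-binding chains, Itga5 (chr15:103344286-103366763), the receptor that assembles fibronectin fibres, was highest in stromal-like cells at 315 and 328 CPM. Endothelial-like cells had 174 and 193 CPM, and in KPCA.FSTKO the order stroma, endothelium, cancer and macrophages was one in which no neighbours overlapped. Itgb1 (chr8:128685654-128733200), the shared beta chain, was found in every class, from 33.0 CPM in erythroid-like cells to 1035 in endothelial-like cells of KPCA.FSTKO. Stromal-like cells had 532 and 678 CPM and macrophage-like cells 302 and 332. After thinning to 2000 UMIs an Itgb1 UMI was found in 54.5% and 52.7% of cancer-like cells.

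Itgav (chr2:83724397-83806916) varied little among the main classes, with 138 CPM in cancer-like, 155 in stromal-like, 174 in macrophage-like and 212 in endothelial-like cells of KPCA.FSTKO. Lymphoid-like cells stood apart at 836 CPM (754 to 924, 381 UMIs in 70 cells) in KPCA.FSTKO and 814 CPM (642 to 1017, 77 UMIs in 11 cells) in KPCA.FSTKO_hFSTL3. In KPCA.FSTKO the cell with most Itgav UMIs held 7.35% of them, and 72.9% of lymphoid-like cells had at least 1, at a median depth of 4737.5. In KPCA.FSTKO_hFSTL3 one cell held 40.3%. Of its beta partners among the 10 members, Itgb1 stood at 213 and 233 CPM in these cells (97 and 22 UMIs). Itgb5 stood at 15.4 CPM (7 UMIs) in KPCA.FSTKO and 0 UMIs in KPCA.FSTKO_hFSTL3, and Itgb8 at 19.7 and 42.3 CPM (9 and 4 UMIs). Beta chains outside the members are not given for these cells.

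Itgb5 (chr16:33829665-33949338), the beta chain of the vitronectin receptor, was highest in macrophage-like cells at 157 and 204 CPM, followed by stromal-like cells at 134 and 151 and cancer-like cells at 91.9 and 113. Endothelial-like cells had 10 UMIs, 13.3 CPM, in KPCA.FSTKO, and 0 UMIs in KPCA.FSTKO_hFSTL3, which allows a level of up to 19.9 CPM. Among macrophage-like cells the library ratio was 1.30 (1.17 to 1.43) for Itgb5 and 0.851 (0.759 to 0.952) for Itgav.

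Itgb8 (chr12:119158022-119238802), which with alpha v presents latent TGF-beta, had 583 and 51 UMIs (5.38 and 5.28 CPM) in cancer-like cells. In stroma it stood at 47.3 and 52.9 CPM, 8.80-fold (7.64 to 10.1) and 10.0-fold (6.998 to 14.5) the level of cancer-like cells. It was thus a chain of stromal more than of cancer-like cells. Macrophage-like cells had 10 UMIs (0.967 CPM) in KPCA.FSTKO and 0 in KPCA.FSTKO_hFSTL3. Endothelial-like cells of KPCA.FSTKO had 0 UMIs, which allows up to 4.00 CPM, so these 65 cells could not show a level much below the cancer-like 5.38 CPM.

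**Figure D4:**
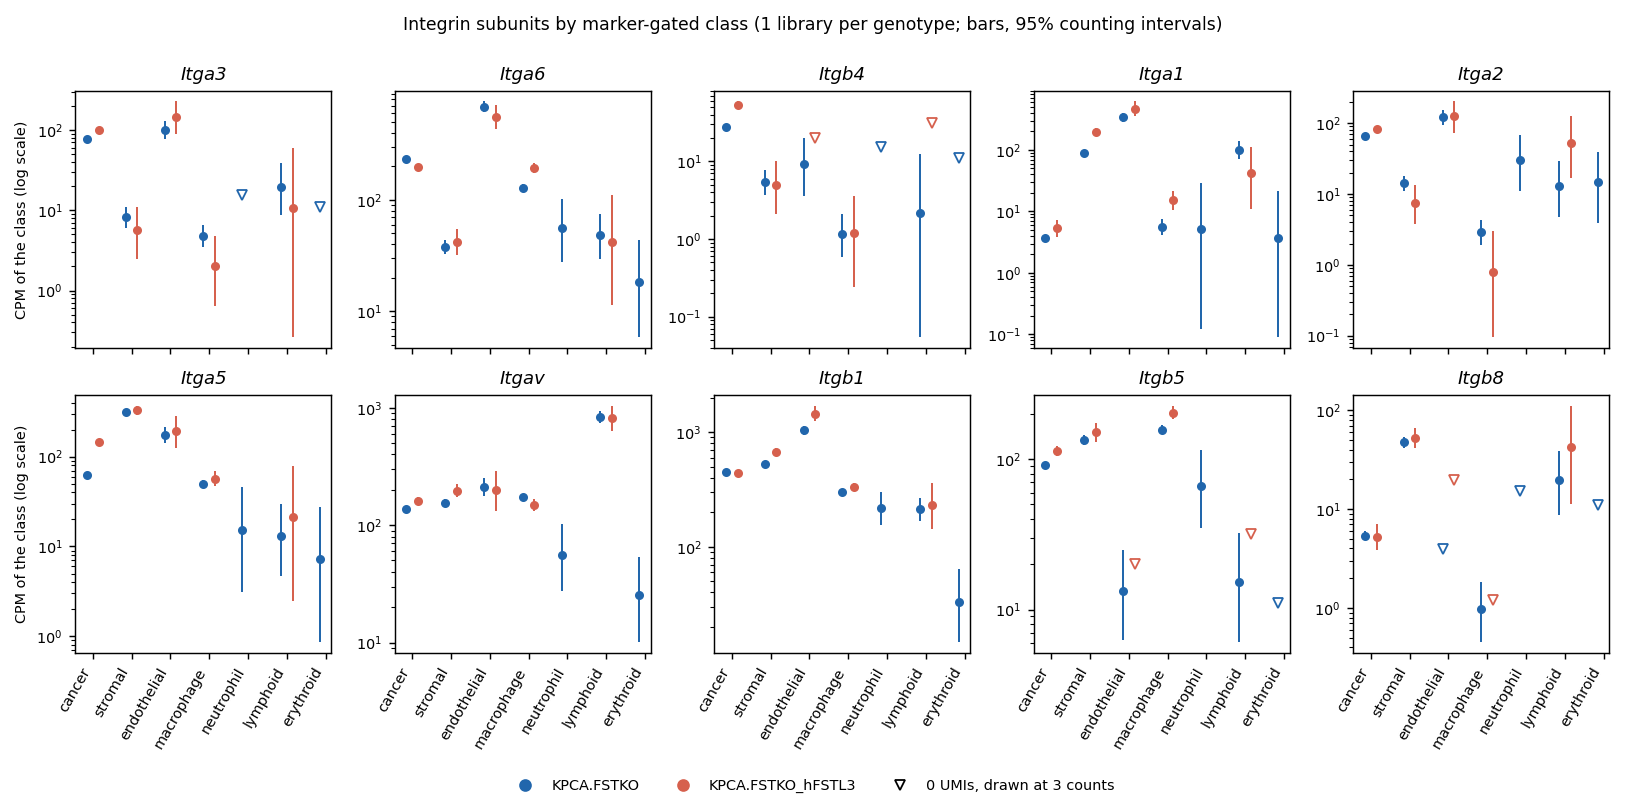
CPM of each subunit on a log scale (vertical axis) in the marker-gated classes with at least 10 cells (horizontal axis), in KPCA.FSTKO (blue) and KPCA.FSTKO_hFSTL3 (red). Points are the CPM of UMIs summed over the class, bars 95% counting intervals and open triangles classes with 0 UMIs, drawn at the level of 3 counts; Itgb4 peaked in cancer-like cells, Itga1, Itga6 and Itgb1 in endothelial-like cells of KPCA.FSTKO, and Itgav in lymphoid-like cells.

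Endothelial-like and cancer-like cells differed in both directions. In KPCA.FSTKO 4 members were at least 2-fold higher (Itga1, Itga5, Itga6 and Itgb1), where 18.5% of genes were, and 2 lower (Itgb4 and Itgb5), where 26.7% of genes were. Itgb8 had 0 UMIs and is not counted among the lower members, since a level of up to 4.00 CPM against 5.38 does not show a 2-fold difference. The size rule alone counts it and gives 3 lower, and the 26.7% likewise includes genes with 0 UMIs. The 10 endothelial-like cells of KPCA.FSTKO_hFSTL3 gave 3 higher of 9 members with enough UMIs (Itga1, Itga6 and Itgb1), where 18.0% of genes were, and 2 lower (Itgb4 and Itgb5, both at 0 UMIs), where 28.9% of genes were. Macrophage-like cells were compared with cancer-like cells in the same way, and with 10 and 8 members past the UMI minimum the counts are small. In KPCA.FSTKO the macrophage-like cells had 0 members at least 2-fold higher, where 16.2% of genes were, and 4 lower (Itga2, Itga3, Itgb4 and Itgb8), where 31.7% of genes were. In KPCA.FSTKO_hFSTL3, 0 of 8 members were higher, where 17.6% of genes were, and 4 were lower (Itga2, Itga3, Itga5 and Itgb4), where 25.6% of genes were. Itga5 was in the lower set of KPCA.FSTKO_hFSTL3 with a ratio of 0.391 (0.326 to 0.465), against 0.802 (0.732 to 0.877) in KPCA.FSTKO.

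Cancer-like cells of KPCA.FSTKO differed among themselves. Across the 7 clusters with at least 50 of them, Itga2 ranged from 10.0 CPM in cluster 5 to 252 in cluster 11, Itga5 from 9.09 to 105, Itgav from 29.7 to 356 and Itgb1 from 193 in cluster 12 to 579 in cluster 11. All 10 members had their highest level in cluster 11. The share of all genes highest there was not computed, so the count is not read as a trait of the members. The 170 cells of cluster 11 had a median of 9012.5 UMIs, a mitochondrial share of 10.4% and Malat1 at 43630 CPM, against 10831.5 UMIs, 2.60% and 1099 CPM in the 272 cells of cluster 5. Between clusters 5 and 11 the members were thus higher where Malat1 and the mitochondrial share were higher. Over the other clusters this did not hold for each member. Itga3 stood at 74.5 CPM in cluster 12, with Malat1 at 1663 CPM, and at 67.4 in cluster 1, with Malat1 at 18885 CPM. The part of RNA quality in these differences was not tested.

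Dividing cells differed from other cancer-like cells in some chains. Cancer-like cells with at least 2 thinned UMIs of 8 proliferation genes, among them Mki67 and Top2a, made up 21.3% of KPCA.FSTKO and 26.4% of KPCA.FSTKO_hFSTL3. In KPCA.FSTKO Itga1 stood at 2.08 CPM in proliferating and 4.13 in other cells (ratio, 0.504, interval 0.371 to 0.674) and Itgb8 at 3.59 and 5.94 (0.605, 0.479 to 0.756). These were the 2 members at least 1.5-fold lower, where 5.12% of genes were, and 0 were higher, where 6.87% were. In KPCA.FSTKO_hFSTL3 it was Itga2 (49.5 and 95.3 CPM, ratio 0.519, 0.424 to 0.631) and Itgb5 (74.4 and 126 CPM, ratio 0.592, 0.502 to 0.696), where 10.0% of genes were lower and 9.87% higher. Itgb5 had a ratio of 0.708 (0.672 to 0.745) in KPCA.FSTKO. The ratio of Itga1 in KPCA.FSTKO_hFSTL3 was 1.22 (0.623 to 2.28). Itga3 and Itga6 stood slightly higher in dividing cells of KPCA.FSTKO, at 1.11 (1.06 to 1.17) and 1.09 (1.06 to 1.12). The interval for Itga5 included 1 in KPCA.FSTKO (0.990, 0.935 to 1.05), and its ratio in KPCA.FSTKO_hFSTL3 was 0.755 (0.660 to 0.862). When proliferating cells were called on unthinned UMIs, 0 members passed the 1.5-fold ratio in KPCA.FSTKO.

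The genes that work with these receptors were read in 5 lists over the same cancer-like cells, against 3.31% of all genes higher and 6.68% lower. Of 24 adaptors and kinases that link integrins to actin, 23 had enough UMIs, 3 were at least 2-fold higher and 1 lower in KPCA.FSTKO_hFSTL3, with a median log2 ratio of 0.41. Ptk2b, a kinase related to focal adhesion kinase, stood at 9.21 and 33.7 CPM (ratio, 3.65, interval 3.21 to 4.14), Fermt1 (kindlin 1, which activates integrins of epithelium) at 19.9 and 44.4 CPM (2.24, 2.01 to 2.48), and Parvb, an actin-binding partner of integrin-linked kinase, at 44.2 and 89.2 CPM (2.01, 1.87 to 2.17). Tln2, a talin, was lower with 588 and 9 UMIs (0.172, 0.0782 to 0.329).

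Of 24 laminin, fibronectin and RGD ligands 19 had enough UMIs, 0 were higher and 1 was lower, with a median of -0.13. The lower one was Lama3, a laminin chain of epithelial basement membranes and a ligand of alpha 6 beta 4, with 225 and 1 UMIs in the libraries without and with human FSTL3 (ratio, 0.0499, interval 0.00126 to 0.281). Fn1, which encodes fibronectin, stood at 2109 and 1996 CPM (log2, -0.08). Of 8 hemidesmosome and tetraspanin partners 7 had enough UMIs and 0 passed in either direction, with a median of 0.12. Of 9 genes in a list named integrin inactivators, a name that need not fit each gene, 0 were higher and 1 was lower, and the median was 0.24. The lower one was Kank1, an adaptor at the edge of focal adhesions, with 15.2 and 5.59 CPM (0.368, 0.275 to 0.482). Among the 16 other integrin subunits 8 had enough UMIs and 0 passed, with a median of 0.41.

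For 8 of the members the gene whose level over classes ran most alike is given, by Pearson's r of log2(CPM + 1) over 10 class sums (7 from KPCA.FSTKO and 3 from KPCA.FSTKO_hFSTL3, which share libraries and depth) among 14203 genes. It was Ctnnb1 for Itgb1 (r, 0.991), Plcd1 for Itga5 (0.978), Cav2 for Itga6 (0.957), Fzd6 for Itga3 (0.975), Ctnnal1 for Itgb4 (0.973) and Magi1 for Itga2 (0.963). It was Armcx4 for Itga1 (0.973) and Brsk1 for Itgb8 (0.982). Between members the highest r was that of Itga3 and Itgb4 (0.905), followed by Itga5 and Itgb1 (0.844). With 10 points and so many genes a high r is a description of these sums.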

How the data were processed

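Single cells were measured with a 10x Genomics 3′ kit in 1 library per line, each from 4 pooled tumors. The authors ran Cell Ranger (3.1.0 in the processing notes, 7.2.0 in the file headers) on the mm10 reference and deposited raw UMI counts per gene and barcode, 168214773 and 80391504 UMIs in 7582 and 4244 barcodes. Whether intronic reads were counted is not given in the sources used here. The stated filters (mitochondrial share under 20%, more than 200 and fewer than 8000 genes) were applied here. Barcodes of at least 2000 UMIs were gated by 7 marker lists with at least 3 own markers, and doublets were kept. UMIs were summed per class and divided by the class total (CPM). Intervals at 95% were exact Poisson for levels, Clopper-Pearson for shares and conditional binomial for ratios. A count of 0 was set against 3 counts. The size rule was tested on simulated data. Clusters came from Seurat 5.3.0 (2000 variable genes without integrins, 10 principal components, resolution 0.8), TMM from edgeR 4.0.16 (scaling alone), and other steps from Python 3.11.15 with numpy 2.4.6, scipy 1.17.1 and pandas 2.3.3 and R 4.3.3. Gene positions are from GENCODE (GRCm38). The text names all members, list genes past the size rule, Fn1, gate markers and the most alike gene of each member, which for Itgav and Itgb5 is not reported here. Members and lists were chosen with earlier results of these data known, and clusters, the contractile split and the removal of top cells after the data were seen. Human FSTL3 and the other assays of the study were not analysed here.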

Additional observations from a re-analysis of the deposited data

How the results depend on the processing

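No paired analysis was possible because the labels give 1 library per line and no replicate numbers, and for the same reason no library could be left out. Of 59 recomputed summary counts 48 stayed within 1.5 times the reported count and 11 moved. The number of members at least 2-fold higher in cancer-like cells of KPCA.FSTKO_hFSTL3 was 1, and it became 2 with classes from clusters, 2 at a ratio of at least 1.5, 0 by the mean of per-cell CPM and 2 when unclassed barcodes with cancer markers were counted as cancer-like, a setting that also gave 1 lower in place of 0. The 3 list genes that were higher became 12 at a ratio of 1.5 and 15 with those barcodes. The 3 that were lower became 6 at a ratio of 1.5, 5 with at least 20 UMIs and 6 with those barcodes. Proliferating cells called on unthinned UMIs gave 0 members in place of 2 in KPCA.FSTKO. In KPCA.FSTKO_hFSTL3 that call left Itgb5 past the 1.5-fold ratio (0.640) and Itga2 short of it (0.752). Beyond the looser thresholds the cause of these moves was not tested. Of 620 values for single genes 470 stayed within the counting interval of the reported value, 150 left it and 0 of those past the threshold turned. The log2 library ratio of Itga5 in cancer-like cells ran from 0.98 to 1.32 over 13 alternatives and that of Itgb4 from 0.62 to 1.02, except 0.12 with the unclassed barcodes counted, which also took Itga1 from 0.56 to 1.92, Itga2 to -0.89, Itga3 to -0.60, Itga6 to -1.09, Itgav to -0.23, Itgb1 to -0.77 and Itgb5 to -0.04. TMM scaling moved every log2 ratio by -0.10. Precision in KPCA.FSTKO_hFSTL3 was limited by its 258 cancer-like, 64 stromal-like and 10 endothelial-like cells.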

Other observations

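The 2912 barcodes of KPCA.FSTKO_hFSTL3 that carried cancer and macrophage markers together belong to no class and entered the comparison of the libraries in 1 alternative alone, which counted them as cancer-like. The median acinar level of all unclassed barcodes of that library was 103 per 10000 UMIs. In them Itga5 stood at 122 CPM, Itgb4 at 26.4, Itga6 at 92.5, Itgav at 110 and Itgb1 at 227, where the cancer-like cells of the same library had 145, 53.0, 196, 161 and 442 CPM. Each of these 5 members was thus lower in the mixed barcodes than in the gated cancer-like cells. Itga1 went the other way, at 15.9 CPM in the mixed barcodes and 5.38 in the gated cells. The share of all genes lower in the mixed barcodes was not computed. The 172 such barcodes of KPCA.FSTKO had 63.5, 19.5, 198, 150 and 420 CPM of the same genes. Itga5 was thus higher in KPCA.FSTKO_hFSTL3 than in KPCA.FSTKO in both sets, gated and mixed. Itgb1 was level between the libraries in gated cells and lower in the mixed barcodes of KPCA.FSTKO_hFSTL3. The mixed barcodes also held stromal transcripts, with a list median of 21.6 per 10000 UMIs in KPCA.FSTKO_hFSTL3 and 14.2 in KPCA.FSTKO. Gated cancer-like cells of KPCA.FSTKO_hFSTL3 had 1.55. Median depths of the mixed barcodes were 16961.5 and 4447.5 UMIs. The part of stromal transcripts and depth in their Itga5 levels was not tested.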
